A study of Mus musculus with 20 samples.

Results

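The genes of 3 paired families of transcriptional repressors, Bcl11a and Bcl11b, Hic1 and Hic2, and Cux1 and Cux2, were followed by name through RNA counts of sorted mouse embryonic skin cells. They are 6 of the 23432 gene symbols counted, and all 6 passed the filter on low counts in both fits described below. They were chosen because Bcl11b, Hic1 and Cux2 differ strongly between stages or between knockout and control cells in these same libraries, so their changes among the epidermal groups are given as a description with no p-value. The RNA libraries form 4 groups of 3. The first is epidermis at embryonic day 13 (E13) of the genotype labelled ΔNp63-GFP knock-in KO. The second is E13 epidermis of the knock-in Het genotype, the third is Het epidermis at embryonic day 9 (E9), and the fourth is Het dermis at E13. ΔNp63 is the shorter amino-terminal form of p63, the transcription factor of stratified epithelia that Trp63 encodes. All groups carry the GFP knock-in allele, so the Het groups serve as controls that have the reporter as well. Epidermal cells were taken from back skin as cells with GFP fluorescence, and dermal cells by staining for CD140a, the receptor protein that Pdgfra encodes. The labels do not say whether replicates are separate embryos or litters, so the spread may be partly technical.

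Bcl11a and Bcl11b encode C2H2 zinc finger proteins, also called CTIP1 and CTIP2, that recruit the NuRD histone deacetylase complex and have been found with the BAF chromatin remodelling complex. Bcl11b is known for T cell commitment, for deep-layer neurons of the cortex and, in mouse skin, for keratinocyte proliferation and barrier formation, and Bcl11a for silencing of fetal globin genes in human erythroid cells. Hic1 and Hic2 encode BTB zinc finger repressors that bind the corepressor CtBP. Human HIC1 is named for its hypermethylation in cancer. Cux1 and Cux2 encode homeodomain proteins with CUT repeats. CUX1 is also known as CCAAT displacement protein, and Cux2 is widely used as a marker of upper-layer cortical neurons.

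The genes lie on 4 chromosomes of GRCm38.p6. Bcl11a spans chr11:24076564-24173558, Bcl11b chr12:107910403-108004145, Hic1 chr11:75161377-75170255, Hic2 chr16:17233587-17263430, Cux1 chr5:136248135-136567590 and Cux2 chr5:121857962-122050415. Hic1 and Cux1 overlap the counted genes Smg6 and Mir721, and Hic2 overlaps Tmem191c. The sources used here do not say how reads of overlapping genes were divided. Smg6 had 882, 699 and 647 counts in the 3 E9 libraries, where Hic1 had 2, 0 and 1. Mir721 had at most 25 counts and Tmem191c at most 46 in any library.

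The 250 bases upstream of a RefSeq transcription start (GRCm38.p6) are shown for the 4 genes with the largest changes below, because the members move in different directions and their upstream sequences differ in base composition. They are written from 5′ to 3′ on the gene's strand, and capitals mark CCAAT or its reverse complement ATTGG. The windows are chr11:24080445-24080694 (plus strand), chr12:108003415-108003664 (minus strand), chr11:75170256-75170505 (minus strand) and chr5:122049852-122050101 (minus strand).
Bcl11a: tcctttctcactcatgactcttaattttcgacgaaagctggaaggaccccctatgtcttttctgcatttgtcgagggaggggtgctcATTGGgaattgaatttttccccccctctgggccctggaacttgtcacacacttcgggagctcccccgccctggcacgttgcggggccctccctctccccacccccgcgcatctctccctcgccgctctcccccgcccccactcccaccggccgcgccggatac
Bcl11b: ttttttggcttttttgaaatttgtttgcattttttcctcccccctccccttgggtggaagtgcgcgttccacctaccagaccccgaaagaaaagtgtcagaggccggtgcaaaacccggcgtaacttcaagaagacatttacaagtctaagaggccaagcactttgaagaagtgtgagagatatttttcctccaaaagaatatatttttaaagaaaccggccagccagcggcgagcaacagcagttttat
Hic1: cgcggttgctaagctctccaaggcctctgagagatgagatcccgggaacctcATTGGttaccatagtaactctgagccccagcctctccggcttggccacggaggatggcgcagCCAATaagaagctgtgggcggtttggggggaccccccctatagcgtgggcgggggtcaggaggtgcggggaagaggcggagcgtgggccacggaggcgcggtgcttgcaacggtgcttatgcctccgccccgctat
Cux2: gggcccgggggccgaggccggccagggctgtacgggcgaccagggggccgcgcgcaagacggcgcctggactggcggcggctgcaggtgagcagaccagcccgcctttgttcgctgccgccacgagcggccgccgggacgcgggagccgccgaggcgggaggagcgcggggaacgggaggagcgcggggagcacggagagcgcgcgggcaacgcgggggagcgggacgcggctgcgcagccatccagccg

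RefSeq gave 8 such windows for the 6 genes, of 32851 in all. CCAAT, searched on both strands, occurred in 33.8% of all windows. The Bcl11a window held 1 match, the Hic1 window shown held 2, and the other 6 windows held none, among them those of both Cux genes. The window of Cux2 stood out in base composition, with 40 CpG dinucleotides and 80% G and C. Only 1.31% of all windows had as many CpGs, and the median over all windows was 6. A second Cux2 start had 3 CpGs. The window of Bcl11b was the poorest among the first starts of the 6 genes, with 9 CpGs and 44.8% G and C. The Hic1 windows held 18 and 22 CpGs, that of Cux1 18, that of Hic2 17 and that of Bcl11a 16. The loose pattern of CNNG, any 6 bases and CNNG again (N is any base), a core common to sites of the p53 family to which p63 belongs, occurred in 63.5% of all windows and reads the same on both strands. It was found 7 times in the Cux2 window shown, and 4 times each in that of Cux1 and in the second Hic1 window. The windows of Hic2 and of the second Cux2 start held 3 each, that of Bcl11a 2, the Hic1 window shown 1 and that of Bcl11b 0. These numbers were not adjusted for base composition. These matches describe letters and say nothing about binding.

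Trp63, the targeted gene, stood at 24.7, 26.6 and 22.5 CPM (counts per 1000000 counts of a library, with the totals of the 9 epidermal libraries scaled by the TMM method) in KO epidermis, against 574, 654 and 493 CPM in E13 Het epidermis and 300.5, 237 and 131 CPM in E9 Het epidermis. Its log2 fold change between KO and E13 Het epidermis was -4.54 ± 0.28 (SE; edgeR, adjusted p = 1.54e-06), and the 3 KO libraries were far below all 3 Het libraries of either stage. The dermal libraries had 8, 0 and 60 Trp63 counts. Gene counts per library numbered 3373819 to 7777808 in epidermis and 16931664 to 33386872 in dermis. Epidermal libraries had between 10765 genes with a count (E13 Het replicate 1) and 16200 (KO replicate 2). The 12 keratinocyte markers listed for the check of the tissue include Trp63 itself. On a scale set over all 12 libraries Trp63 averaged 22.9 CPM in KO, 529 CPM in E13 Het and 206 CPM in E9 Het epidermis. The 12 markers together summed to 3041 to 4027 CPM in KO, 5031 to 5925 CPM in E13 Het and 2531 to 2690 CPM in E9 Het epidermis, against 102 to 132 CPM in dermis. Among them Krt14, a basal keratin gene, averaged 15.0 CPM in KO, 764 CPM in E13 Het and 6.10 CPM in E9 Het epidermis, and Col17a1, of the hemidesmosome, 0.448, 274 and 2.98 CPM in the same groups, whereas the simple-epithelial keratin gene Krt8 averaged 852, 239 and 448 CPM. The 12 dermal mesenchyme markers summed to 1465 to 2728, 764 to 1950 and 351 to 432 CPM in the same epidermal groups, against 35534 to 48368 CPM in dermis. In whole sorted samples like these, fewer cells that express a gene and less RNA of it per cell cannot be told apart.

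The Bcl11 pair was high in E13 Het epidermis, lower in KO epidermis and low or nearly without counts at E9. Bcl11b had 337, 300.2 and 385 CPM in KO epidermis, 639, 624 and 522 CPM in E13 Het epidermis, and 28.5, 13.4 and 12.6 CPM in E9 Het epidermis. The 3 groups did not overlap, with E13 Het on top and E9 at the bottom. The KO mean, 341 ± 42.5 CPM (SD, n = 3 here and below), was 57.3% of the E13 Het mean of 595 ± 63.9 CPM, a log2 difference of -0.80 ± 0.24 (SE). Between stages in Het epidermis the log2 difference was 5.01 ± 0.29, a 32.3-fold higher level at E13, against a mean of 18.2 ± 8.93 CPM at E9. KO epidermis was likewise above E9, by 4.21 ± 0.28 on the log2 scale or 18.5-fold.

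Bcl11a, its paralog, showed the same order of groups with a larger gap between genotypes. It had 99.6, 129 and 101 CPM in KO epidermis, 360, 317 and 215 CPM in E13 Het epidermis, and 4.90, 0.766 and 0 CPM in E9 Het epidermis. No group overlapped another, although E13 Het libraries spread more for Bcl11a than for Bcl11b. The KO mean of 110 ± 16.4 CPM was 37.0% of the E13 Het mean of 297 ± 74.5 CPM, a log2 difference of -1.43 ± 0.52. At E9 the 3 libraries held 32, 4 and 0 counts, nearly all of them in replicate 1, and the count of 0 in replicate 4 allows a level of up to 0.742 CPM. By summed counts Bcl11a was 129 times as high in E13 Het as in E9 Het epidermis (95% counting interval 93.2 to 185) and 49.2 times as high in KO as in E9 Het epidermis (35.4 to 70.5). The fitted log2 differences from E9 were 7.11 ± 0.72 for E13 Het and 5.67 ± 0.69 for KO epidermis. Without E9 replicate 1 they were 9.34 and 7.91, so their size depended on that library. Such intervals cover counting error only, since PCR copies are not independent molecules.

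Hic1 went the other way between the genotypes. It had 221, 184 and 257.5 CPM in KO epidermis, 175, 132 and 108 CPM in E13 Het epidermis, and 2, 0 and 1 counts in the E9 libraries. All KO libraries were above all E13 Het libraries, by a narrow margin between 184 and 175 CPM, and the E9 libraries were at or near 0. The KO mean of 221 ± 36.7 CPM was 160% of the E13 Het mean of 138 ± 34.4 CPM, a log2 difference of 0.68 ± 0.24. With 3554 counts in KO, 2281 in E13 Het and 3 in E9 Het epidermis, the ratio to E9 was 1122 for KO (95% counting interval 384 to 5445) and 707 for E13 Het (242 to 3432). The fitted log2 differences from E9, 10.02 and 9.35, rest on those 3 counts and on the prior count of the fit, and are no bound.

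Hic2, the paralog of Hic1, did not follow it. It had 78.3, 61.4 and 89.1 CPM in KO epidermis, 73.2, 64.7 and 83.9 CPM in E13 Het epidermis, and 60.0, 66.3 and 81.9 CPM in E9 Het epidermis. All 3 groups overlapped. Their log2 differences were 0.04 ± 0.24 for KO minus E13 Het, 0.09 ± 0.24 for E13 Het minus E9 Het and 0.14 ± 0.24 for KO minus E9 Het.

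Cux1 was highest in KO, intermediate in E13 Het and lowest in E9 Het epidermis, while Cux2 stood apart in KO epidermis. Cux1 had 408, 334 and 410.0 CPM in KO epidermis, 274, 275 and 276 CPM in E13 Het epidermis, and 189, 164 and 171 CPM in E9 Het epidermis. The groups did not overlap, and the E13 Het libraries lay within the narrow range of 274 to 276 CPM. The means were 384 ± 43.0 CPM in KO, 275 ± 1.16 CPM in E13 Het and 175 ± 13.0 CPM in E9 Het epidermis. The log2 differences were 0.48 ± 0.14 for KO minus E13 Het, 0.66 ± 0.14 for E13 Het minus E9 Het and 1.14 ± 0.14 for KO minus E9 Het.

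Cux2 had 170, 124 and 137 CPM in KO epidermis, 1.5, 14.3 and 21.4 CPM in E13 Het epidermis, and 25.9, 19.7 and 14.1 CPM in E9 Het epidermis. Every KO library was several times above every Het library, and the Het libraries of the 2 stages overlapped. The KO mean of 144 ± 23.7 CPM compared with 12.4 ± 10.1 CPM in E13 Het and 19.9 ± 5.88 CPM in E9 Het epidermis. The log2 difference between KO and E13 Het was 3.51 ± 0.65, an 11.4-fold higher level in KO. E13 Het replicate 1, the library with the fewest genes detected, held 6 Cux2 counts, against 108 and 116 in replicates 2 and 3. Without that replicate the log2 difference was 3.02, and without E13 Het replicate 3 it was 4.13. KO minus E9 Het gave 2.85 ± 0.63, or 7.20-fold, and E13 Het minus E9 Het gave -0.67 ± 0.61, which became -0.18 without E13 Het replicate 1 and -1.30 without E13 Het replicate 3.

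**Figure D1:**
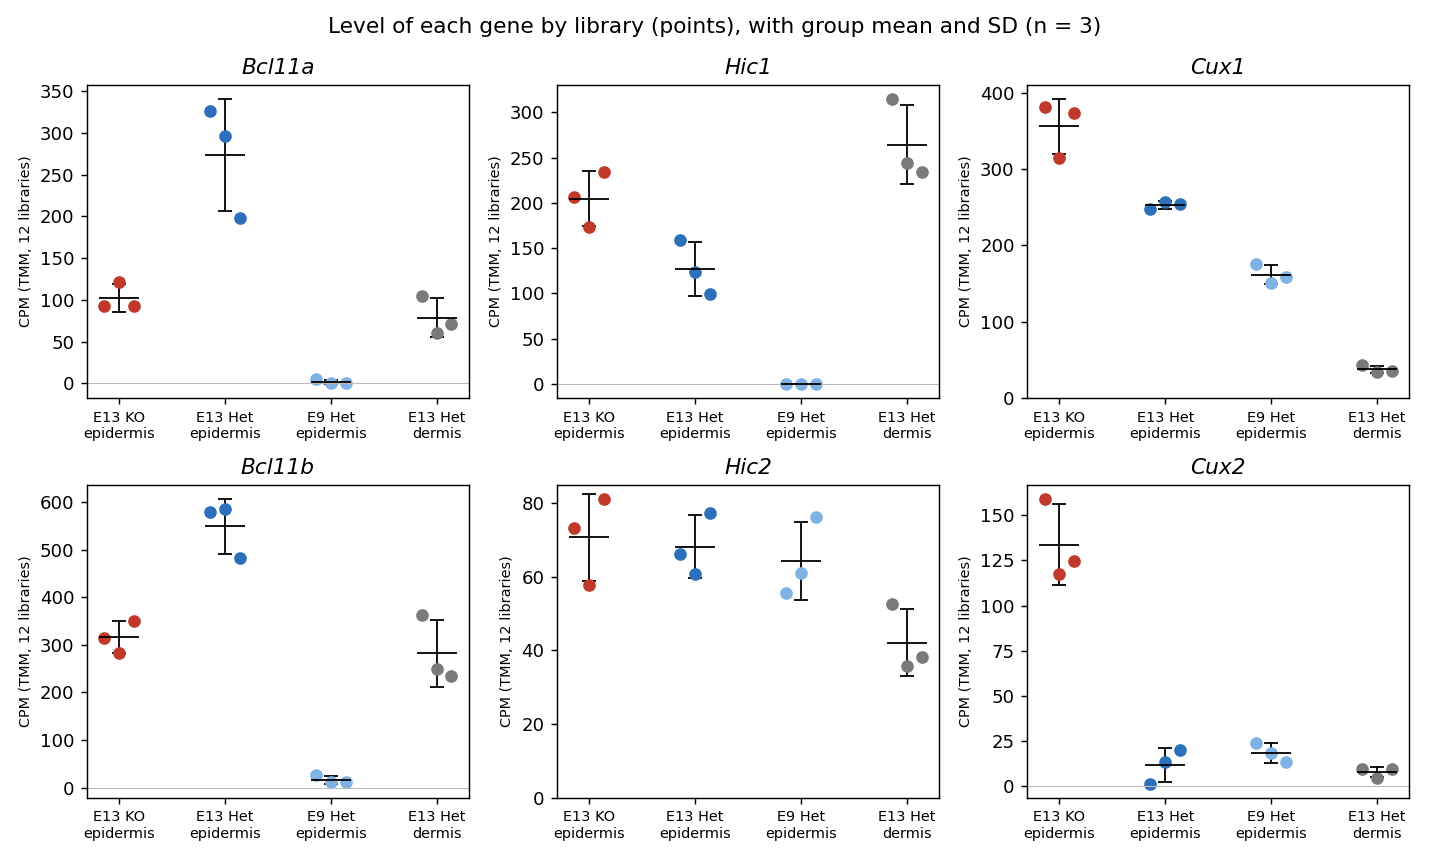
CPM of each of the 6 genes by library, on totals scaled over all 12 libraries, with E13 KO, E13 Het and E9 Het epidermis and E13 Het dermis from left to right, each vertical axis being linear. Points are libraries and bars the mean ± SD (n = 3). Cux2 is high in the 3 KO libraries alone, Bcl11a, Bcl11b and Hic1 are near 0 at E9, and Hic2 overlaps among the 3 epidermal groups.

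Counted by overlap of libraries, 5 of the 6 genes separated KO from E13 Het epidermis, against 20.0% of the 13052 genes tested. Hic1, Cux1 and Cux2 were higher in KO (10.3% of all genes were higher in this way) and Bcl11a and Bcl11b lower (9.78%). Between E13 Het and E9 Het epidermis 4 of the 6 separated, all of them higher at E13, against 29.0% of genes in either direction and 15.0% higher. The exceptions were Hic2 and Cux2. Between KO and E9 Het epidermis 5 of 6 separated, all higher in KO, against 31.9% in either direction and 16.5% higher. Members were chosen on the first 2 of these contrasts and the third is made of the same groups, so the counts describe the choice. The contrasts share libraries and are not independent of each other. By edgeR's adjusted p under 0.05 the shares of all genes called were 2.20% between KO and E13 Het (0.835% higher and 1.36% lower), 7.29% between E13 Het and E9 Het (4.77% and 2.53%) and 7.67% between KO and E9 Het epidermis (4.62% and 3.05%).

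**Figure D2:**
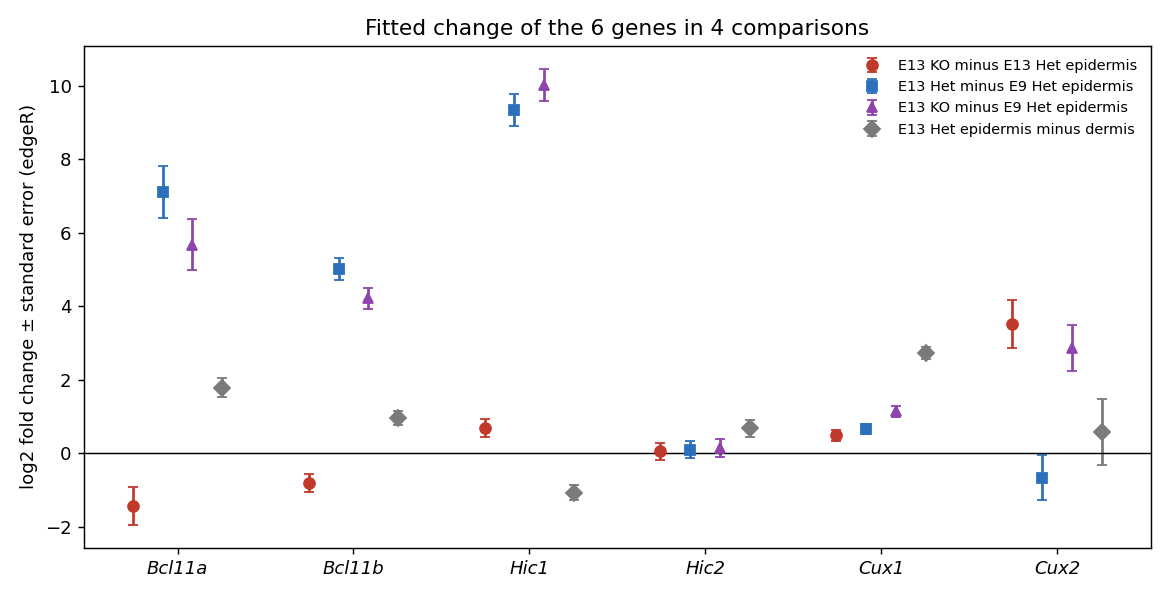
Fitted log2 fold change of each of the 6 genes (linear axis; edgeR, points ± SE) for E13 KO minus E13 Het, E13 Het minus E9 Het, E13 KO minus E9 Het and E13 Het epidermis minus dermis. Bcl11a and Bcl11b lie below 0 between the genotypes and far above 0 against E9, Cux2 is raised in both contrasts with KO, and Hic2 lies near 0 in all 3 epidermal contrasts. The points of Hic1 against E9 rest on 3 counts.

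The comparison of Het epidermis with Het dermis at E13 played no part in choosing the genes and was tested. The epidermal libraries were made after removal of ribosomal RNA and the dermal ones after oligo(dT) selection, so that tissue and preparation cannot be told apart in it. Bcl11a, Bcl11b and Cux1 were higher in epidermis, and Hic1 was higher in dermis. With edgeR's quasi-likelihood test 4 of the 6 passed an adjusted p of 0.05, against 34.7% of the 12975 genes tested (16.5% higher and 18.2% lower in epidermis). The libraries did not overlap for 5 of the 6, 4 higher and 1 lower in epidermis, against 56.0% of genes (24.8% higher and 31.2% lower).

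Cux1 had 248, 258 and 255 CPM in E13 Het epidermis and 43.2, 34.3 and 35.5 CPM in dermis, on the scale of all 12 libraries. The log2 fold change was 2.73 ± 0.16, or 6.64-fold (edgeR, adjusted p = 3.19e-05), with every epidermal library far above every dermal one. Bcl11a had 326, 297 and 198 CPM in epidermis and 105, 60.6 and 70.7 CPM in dermis, a log2 fold change of 1.78 ± 0.25 (edgeR, adjusted p = 0.00117). Bcl11b had 579, 585 and 482 CPM in epidermis and 364, 248 and 235 CPM in dermis (log2 fold change 0.94 ± 0.19, edgeR, adjusted p = 0.00631). For both Bcl11 genes the tissues did not overlap, and each of the 3 genes kept its call whichever of the 6 libraries was left out.

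Hic1 had 159, 123 and 99.2 CPM in epidermis and 315, 244 and 234 CPM in dermis, again with no overlap. Its log2 fold change was -1.08 ± 0.20 (edgeR, adjusted p = 0.00424). Scaling mattered in this comparison: on raw library totals the log2 change of Hic1 was -0.64 (edgeR, adjusted p = 0.0957, the highest over 13 alternatives, of which the lowest gave 0.000143), and the median of all genes moved to 0.30, against -0.13 with TMM scaling. Relative to that median Hic1 stood at -0.94 on raw totals and -0.95 with TMM. The share of calls that were higher in epidermis was likewise 68.7% on raw totals and 47.5% with TMM. Hic2 had 66.3, 60.6 and 77.4 CPM in epidermis and 52.5, 35.7 and 38.1 CPM in dermis, with no overlap, and missed the threshold narrowly (0.67 ± 0.23, edgeR, adjusted p = 0.0505). It passed under 7 of the 13 alternatives, with adjusted p between 0.0164 and 0.0491, and the highest adjusted p was 0.16. Cux2 had 1.36, 13.4 and 19.8 CPM in epidermis and 9.43, 4.40 and 9.22 CPM in dermis. Its tissues overlapped and the difference was not resolved (0.58 ± 0.90, edgeR, adjusted p = 0.657).

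Placed in order over the 4 groups on the 12-library scale, the genes fell into several patterns. The order for Cux1 was KO (357 ± 36.0 CPM), E13 Het (253 ± 4.99), E9 Het epidermis (162 ± 12.5) and dermis (37.6 ± 4.8), and no neighbours overlapped. That for Bcl11a was E13 Het (274 ± 66.9), KO (102 ± 16.6), dermis (78.6 ± 23.0) and E9 (1.75 ± 2.45), with KO and dermis overlapping. Bcl11b had the same order, at 548 ± 57.9 CPM in E13 Het, 316 ± 33.8 in KO, 282 ± 70.7 in dermis and 16.8 ± 8.30 in E9, and its KO and dermal libraries overlapped too. Hic1 was highest in dermis (264 ± 43.9) and next in KO (205 ± 30.5), whose top library met the lowest dermal one at 234 CPM, and was lower in E13 Het (127 ± 30.0) and E9 Het epidermis (0.171 ± 0.151). The order of KO and dermis depended on scaling. On raw totals Hic1 averaged 227 ± 39.5 CPM in KO and 213 ± 56.0 CPM in dermis. On raw totals Bcl11a did not overlap, at 100 to 133 CPM in KO and 41.5 to 91.4 CPM in dermis. For Hic2 the epidermal groups overlapped among themselves between 55.7 and 81.1 CPM, above the dermal range of 35.7 to 52.5 CPM. For Cux2, KO (134 ± 22.3) was followed by E9 (18.4 ± 5.44), E13 Het (11.5 ± 9.35) and dermis (7.68 ± 2.85). Its E13 Het libraries overlapped both E9 and dermis, which did not overlap each other.

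Markers of other cell types differed between the groups as well and are set beside the genes that are known from those cells. Hic1, the gene highest in dermis on the 12-library scale, stood in KO epidermis at 77.5% and in E13 Het epidermis at 48.1% of its dermal level. On raw totals its KO mean was above its dermal mean. The 12 mesenchyme markers stood at 0.616% (Twist2) to 14.5% (Col5a1) of their dermal levels in KO epidermis, with a median of 4.39%, and at 0.450% (Lum) to 15.2% (Col5a1) in E13 Het epidermis, with a median of 2.26%. Each of these markers was at a smaller share of its dermal level than Hic1 was, in both genotypes. Among the other members the lowest share was 112% in KO (Bcl11b) and 150% in E13 Het epidermis (Cux2). These shares compare epidermal and dermal libraries, whose preparation differed. The marker sums were 1465 to 2728 CPM in KO and 764 to 1950 CPM in E13 Het epidermis, overlapping but with the higher median in KO. The part of mesenchymal cells in the level of Hic1 was not tested.

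**Figure D3:**
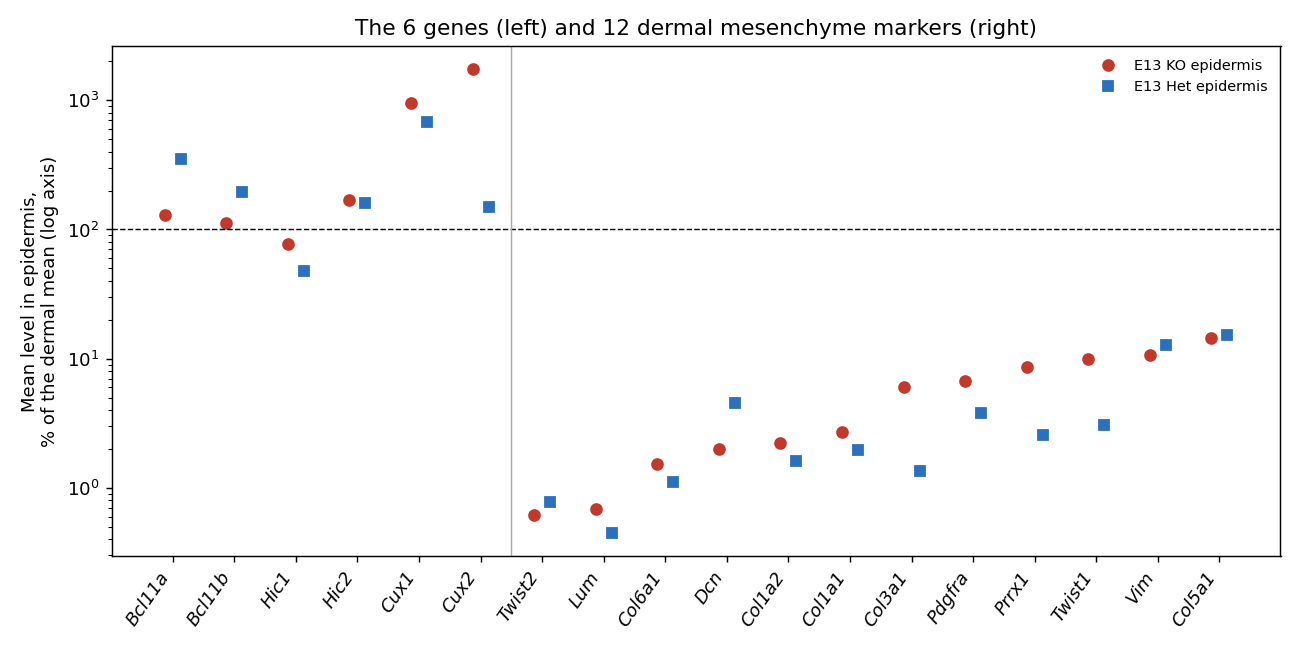
Mean level in E13 KO and E13 Het epidermis as a percentage of the mean in E13 Het dermis (12-library scale, log axis) for the 6 genes on the left and the 12 dermal mesenchyme markers on the right, where the dashed line marks 100%. All 12 markers lie at or below 15.2%, whereas Hic1 lies at 77.5% in KO and 48.1% in E13 Het epidermis and the other 5 genes above 100%.

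The summed level of the neuronal markers was, like Cux2, highest in KO epidermis, mainly through Map2. The 12 listed summed to 112, 141 and 187 CPM in KO epidermis (lowest, median and highest library), against 10.4, 24.2 and 37.0 CPM in E13 Het and 43.3, 55.4 and 89.0 CPM in E9 Het epidermis, and to 54.9, 55.6 and 84.5 CPM in dermis. Map2, a microtubule-associated protein gene of dendrites, made up most of the KO sum at 81.3 CPM, and was the only one of the 8 with enough counts to be tested that passed between KO and E13 Het epidermis (log2 fold change 2.99 ± 0.66, edgeR, adjusted p = 0.0408). Nefm, Nefl, Syt1 and Dcx were also highest in KO, at 18.9, 14.1, 13.3 and 8.46 CPM. In E13 Het epidermis they averaged 0.866, 1.45, 4.33 and 1.37 CPM. Tubb3, Elavl3, Elavl4, Snap25 and Neurod1 were instead highest in E9 among the epidermal groups. Tubb3 was at 3.96 CPM in KO, 1.78 CPM in E13 Het and 12.3 CPM in E9 Het epidermis. Stmn2 was at 4.33 CPM in KO, 1.25 CPM in E13 Het and 0.757 CPM in E9 Het epidermis and 30.7 CPM in dermis. The neuronal factor gene Neurod1 had no count in KO epidermis, and Rbfox3 none in E13 Het epidermis. The 4 neural progenitor markers summed to 89.9 to 135 CPM in KO, 59.9 to 128 CPM in E13 Het and 149 to 211 CPM in E9 Het epidermis, most of it Nes. The part of such cells in the level of Cux2 was not tested. T cell and other leukocyte markers, relevant to the Bcl11 genes, summed to 15.0 to 35.0 CPM in KO, 6.56 to 34.3 CPM in E13 Het and 14.1 to 19.6 CPM in E9 Het epidermis. The T cell receptor complex genes Cd3e and Cd3g had no count in KO or E9 epidermis and averaged 0.0412 and 0.124 CPM in E13 Het epidermis. Lck, on the same list, averaged 8.42 CPM in KO, 6.16 CPM in E13 Het and 15.3 CPM in E9 Het epidermis. In the same groups Cd79a averaged 10.9, 6.64 and 0.153 CPM, and Csf1r 2.20, 8.59 and 0.460 CPM. Endothelial, erythroid, melanocyte and muscle markers summed to at most 27.5 CPM each in any E13 epidermal library. In E9 Het replicate 4 the erythroid markers summed to 62.1 CPM and the muscle markers to 30.8 CPM, against at most 0.284 and 3.88 CPM in the other E9 libraries, and in dermis the erythroid markers summed to 242 to 1570 CPM.

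The partner proteins of the 3 families were followed through lists, chosen with earlier results of these data known. Over all genes tested, edgeR called 2.20% between KO and E13 Het epidermis. Between KO and E13 Het epidermis, none of 25 tested BAF subunit genes, 15 NuRD subunit genes, 20 genes of CtBP and other corepressors, 26 BTB zinc finger relatives of Hic1 and 3 CUT domain relatives of Cux1 passed edgeR's test (adjusted p under 0.05). At an unadjusted p under 0.05 the counts were 4, 3, 1, 1 and 0, with DESeq2 1, 1, 1, 1 and 0, and with limma voom 0, 1, 1, 1 and 0. The median log2 differences of the 5 lists lay between -0.16 and 0.03, beside 0.03 for all genes. The genes behind the DESeq2 counts, named after their values were seen, were Arid1b (291 ± 21.9 CPM in KO and 404 ± 20.3 in E13 Het), Mta2 (175 ± 8.06 in KO and 332 ± 117 in E13 Het), Ctbp2 (132 ± 43.2 in KO and 70.5 ± 23.5 in E13 Het) and Zbtb10 (40.3 ± 16.3 in KO and 18.4 ± 5.96 in E13 Het).

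Between E13 Het and E9 Het epidermis, single subunits changed within complexes. Over all genes tested, edgeR called 4.77% higher and 2.53% lower at E13. Of the 15 NuRD genes 2 were called higher at E13 and none lower by edgeR. At an unadjusted p under 0.05 the counts were 4 higher and 3 lower, with DESeq2 3 and 2, and with limma voom 3 and 3. Chd3, a helicase subunit of NuRD, was at 1397 ± 248 CPM at E13 and 261 ± 37.7 CPM at E9 (5.34-fold, log2 2.42 ± 0.15, edgeR, adjusted p = 2.62e-07), and in KO epidermis at 1481 ± 49.0 CPM. Mta2, another subunit gene, was at 332 ± 117 CPM at E13 and 149 ± 42.8 CPM at E9 (edgeR, adjusted p = 0.0124). Of the 25 BAF genes 4 rose and 1 fell. Smarca2, which encodes the BRM ATPase, rose to 190 ± 34.0 CPM at E13, against 40.7 ± 23.1 CPM at E9 (4.62-fold, edgeR, adjusted p = 0.00121). Smarcc2, a scaffold subunit gene, was 2.19-fold higher (edgeR, adjusted p = 0.00312), and Smarcd1 was 2.15-fold lower (edgeR, adjusted p = 0.0114). Smarcd2 was 1.57-fold higher (edgeR, adjusted p = 0.0233), a call that ended when any of 5 of the 6 libraries was left out, with adjusted p up to 0.0921.

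Among 26 BTB relatives 3 rose and 2 fell, beside 4.77% and 2.53% of all genes. Zbtb7a was 3.12-fold and Zbtb4 4.41-fold higher at E13 (edgeR, adjusted p = 0.0014 and 0.00818), and Patz1 was 2.03-fold lower (edgeR, adjusted p = 0.00879). Zbtb10 was 2.86-fold lower (edgeR, adjusted p = 0.0267), with adjusted p up to 0.0897 in the refits that lost it. Of the 3 CUT relatives tested, Satb1, a chromatin organiser gene, rose to 458 ± 63.2 CPM at E13, against 80.9 ± 32.9 CPM at E9 (5.64-fold, edgeR, adjusted p = 5.53e-05). None of the 20 corepressor genes passed edgeR's test, with 2 higher at an unadjusted p under 0.05, 1 called by DESeq2 and 3 by limma voom. The list medians were 0.12 for BAF, -0.12 for NuRD, -0.03 for the corepressors, -0.04 for the BTB relatives and -1.38 for the 3 CUT relatives, beside 0.00 for all genes.

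**Figure D4:**
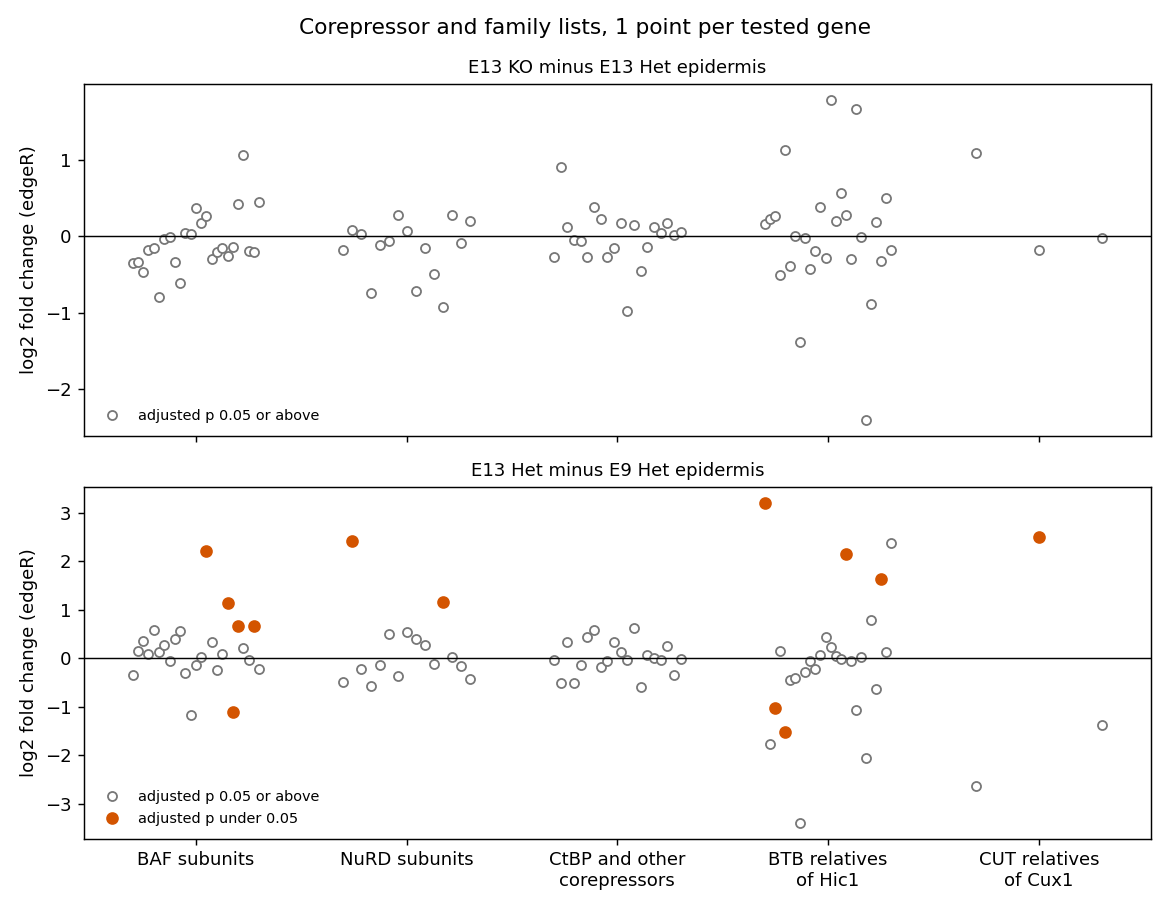
Log2 fold change (edgeR) of each tested gene in 5 lists of partners and relatives, between E13 KO and E13 Het epidermis (upper panel) and between E13 Het and E9 Het epidermis (lower panel). Filled points passed an adjusted p of 0.05. No gene passed in the upper panel, and in the lower panel 2 NuRD, 5 BAF, 5 BTB and 1 CUT gene passed. Of all genes tested, 2.20% passed in the upper comparison and 7.29% in the lower.

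The same lists were read in E13 Het epidermis against dermis, where 16.5% of all genes were called higher and 18.2% lower in epidermis by edgeR. By that test 8 of 25 BAF genes were higher and 1 lower, 6 of 14 NuRD genes higher and none lower, and 8 of 20 corepressor genes higher and 3 lower. Of 24 BTB relatives 5 were higher and 1 lower, and 1 of 3 CUT relatives was higher. For NuRD the counts were 8 higher and 0 lower at an unadjusted p under 0.05, and 7 and 0 both with DESeq2 and with limma voom. For the BTB relatives they were 12 and 2 at an unadjusted p under 0.05, 9 and 1 with DESeq2, and 11 and 1 with limma voom. Of the called genes followed through the refits, Gatad2b, Mta3, Zbtb33 and Zbtb44 lost their calls when single libraries were left out. Their adjusted p (edgeR) rose to at most 0.0522, 0.0753, 0.0643 and 0.054. Smarcc1, a scaffold subunit gene of BAF, stood at 830 ± 109 CPM in epidermis and 231 ± 22.4 CPM in dermis, on the 12-library scale (3.54-fold, edgeR, adjusted p = 0.000166). Chd4, the second NuRD helicase gene, was 2.68-fold higher in epidermis (edgeR, adjusted p = 0.000568), Tbl1xr1, of the NCoR complex, 2.45-fold (edgeR, adjusted p = 0.000736), and Zbtb7a 2.80-fold (edgeR, adjusted p = 0.00367). Satb1 had the largest difference in these lists apart from Zbtb32, which had no dermal count, with 422 ± 57.7 CPM in epidermis and 6.82 ± 3.03 CPM in dermis (edgeR, adjusted p = 2.58e-05). List medians were 0.33, 0.48, 0.19, 0.77 and -0.87 in the same order, beside -0.13 for all genes.

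Genes listed as reported targets of the factors, mostly from other cell types and partly from human cells, were also read. Of 4 listed for BCL11B, 3 passed edgeR's test between KO and E13 Het epidermis, where 2.20% of all genes did. These lists too were chosen with earlier results of these data known, so such counts are a description. Egfr, the epidermal growth factor receptor gene, fell to 87.9 ± 24.2 CPM in KO epidermis, against 402 ± 21.4 CPM in E13 Het epidermis (log2 -2.20 ± 0.22, edgeR, adjusted p = 6.8e-05). Notch1 fell to 145 ± 37.2 CPM in KO, against 676 ± 180 CPM in E13 Het epidermis (log2 -2.22 ± 0.23, edgeR, adjusted p = 6.8e-05). Cdkn1c, a cell cycle inhibitor gene that is listed for HIC1 as well, rose to 475 ± 75.0 CPM in KO, against 120 ± 12.6 CPM in E13 Het epidermis (log2 1.98 ± 0.17, edgeR, adjusted p = 1.02e-05). Between stages Notch1 and Egfr were 8.63-fold and 4.09-fold higher in E13 Het than in E9 Het epidermis (edgeR, adjusted p = 2.67e-06 and 5.32e-05).

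Of 8 tested genes listed for HIC1, 1 passed edgeR's test between genotypes, Cdkn1c, beside 2.20% of all genes. At an unadjusted p under 0.05 and with DESeq2, Cxcr7 and Sox9 were called lower in KO as well, and with limma voom Cxcr7 was. Between stages Ccnd1, the cyclin D1 gene, was the 1 gene called by edgeR, and also by DESeq2 and limma voom. Over all genes edgeR called 7.29% between stages. Ccnd1 fell to 42.6 ± 14.2 CPM in E13 Het epidermis, against 121 ± 15.2 CPM in E9 Het epidermis (edgeR, adjusted p = 0.00414). None of 6 genes listed for CUX1 passed edgeR's test between genotypes, with 0 at an unadjusted p under 0.05, 0 with DESeq2 and 0 with limma voom. Between stages none passed either, with 2 at an unadjusted p under 0.05, 1 with DESeq2 and 1 with limma voom. Against dermis 1 of 7 tested genes was higher in epidermis and 2 were lower by edgeR, where 34.7% of all genes passed. Cdh1, the epithelial cadherin gene, was higher in epidermis (703 ± 122 CPM, against 0.185 ± 0.291 CPM in dermis, edgeR, adjusted p = 5.26e-05). Snai1 and Wnt5a were lower (Snai1 3.23 ± 3.89 CPM in epidermis and 71.0 ± 5.84 CPM in dermis, Wnt5a 11.4 ± 11.2 CPM in epidermis and 393 ± 61.2 CPM in dermis, edgeR, adjusted p = 0.0045 and 0.0077). The lists are short, and what the factors bind in these cells was not measured in the files used here.

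The genes whose pattern was most like each member's were found by Pearson's r of log2 CPM over the 9 epidermal libraries, among 10115 genes that averaged 10 CPM or more in some group. The 9 libraries form 3 groups, so a high r mostly says that the group means have the same order and spacing, and it is given as a description. Bcl11a was most like Satb1 (r = 0.990), followed by Podxl2, Pcdh8, Nbl1 and Rgmb. Bcl11b was most like Vgll3 (0.993), followed by Rgmb, Ablim1, Kcnh7 and Ttc28, so that Rgmb was among the 5 nearest of both paralogs. Hic1 was most like Postn (0.997), which averaged 522 CPM in KO, 507 CPM in E13 Het and 17.7 CPM in E9 Het epidermis, and then Dnmt3a, Chd3, Cyp2w1 and Ltbp3. Hic2, which hardly varied between groups, reached 0.914 with Sun1, and then Chmp1a, Iba57, Smim1 and Mier2. Cux1 was most like Lrig2 (0.989), and Grin3a and Slc7a7 were also among its 5 nearest. Cux2 was most like Ypel2 (0.975), at 20.4 CPM in KO, 6.0 CPM in E13 Het and 8.43 CPM in E9 Het epidermis, with Ksr2, Tmem178, Golph3l and Rhobtb3 next. No gene was among the nearest of members of different families.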

How the data were processed

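The authors' deposited RNA files hold whole-number counts per gene symbol, 1 file per library, with 5 HTSeq summary lines that took 48.8% to 63.8% of entries in epidermal and 20.2% to 21.6% in dermal files and were left out. Per the submitters' processing notes TopHat2, Bowtie2, HTSeq and mm10 were used; versions, roles and the strand setting are not given in the sources used here. Per the labels' protocols, cells came from collagenase- and trypsin-treated back skin, and libraries from SMARTer and NEBNext directional kits. The 7 ATAC and 1 ChIP samples were not analysed here.

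From these counts, the 3 epidermal comparisons were fitted in 1 edgeR 4.0.16 model of 9 libraries (13052 genes, 6 residual degrees of freedom, common biological coefficient of variation 0.571), and epidermis against dermis in a model of 6 (12975 genes, 4 degrees of freedom, 0.506), in R 4.3.3 with filterByExpr, TMM, robust quasi-likelihood F tests and Benjamini-Hochberg adjusted p under 0.05. Standard errors were taken back from the test, as the size of the log2 fold change divided by the root of its F. CPM use TMM-scaled totals of the 9 or all 12 libraries and are not divided by transcript length, so levels are not compared between genes. The procedure was tested on simulated data. Replicates differed by more than sampling noise (chi-square per degree of freedom 15.4 to 227 over replicate pairs). This value grows with depth, and the deeper dermal pairs gave 103 to 227. The p-values reflect the spread of these samples alone, which may be partly technical. A count of 0 was taken to allow up to 3 counts.

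The members and lists were chosen with earlier results of these data known. Named genes are the members, Trp63, up to 4 called genes per list by smallest adjusted p, and the 5 nearest genes of each member by correlation, without predicted or clone names; others are marked, and a few genes that the rule names are not reported here. Alternatives were DESeq2 1.42.0, limma 3.58.1 voom with quality weights, RLE size factors, raw totals, no filter, a replicate block, all 12 libraries in 1 fit and leaving out each replicate. Leaving out E13 Het replicate 1 and KO replicate 3 together, the libraries with the fewest genes detected, was added after seeing the data. Promoter windows and coordinates are from RefSeq tables of GRCm38.p6, in which all 6 members were found.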

Additional observations from a re-analysis of the deposited data

How the results depend on the processing

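The direction of each member's change was the same under the alternatives run, except where groups overlapped: Hic2 among the epidermal groups, whose change lay within its error, and Cux2 between E13 Het epidermis and dermis, at -0.042 (without E13 Het replicate 3) to 1.08 when 1 library was left out. Numbers of called genes moved more. Between KO and E13 Het epidermis (287 called) they were 824 with DESeq2 and 635 with limma voom, and 182 (without KO replicate 1) to 348 when 1 library was left out. Between E13 Het and E9 Het epidermis (952) they were 1997, 1692, and 569 to 812, with 597 without E9 replicate 1 and 569 without E9 replicate 2. Between KO and E9 Het epidermis (1001) they were 2172, 2563, and 557 to 815, with 606 and 557 without E9 replicates 1 and 2 and 592 without KO replicate 1. Between E13 Het epidermis and dermis (4504) they were 2934 (without dermis replicate 3) to 5269 when 1 library was left out. The cause was not tested.

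Same-numbered samples showed little shared deviation, apart from replicate 2 of KO and E13 Het epidermis. Their correlations were -0.061, 0.247 and -0.063 between KO and E13 Het epidermis and between -0.020 and 0.034 in the other comparisons. The main fits therefore used no pairing by number, although such correlations cannot exclude shared litters or processing. With a replicate block 576 genes were called between E13 Het and E9 Het epidermis and 540 between KO and E9 Het epidermis, and the log2 difference of Cux2 between KO and E9 Het epidermis was 2.47. The log2 differences of Hic1 from E9 were 10.01 (E13 Het) and 10.69 (KO) without E9 replicate 1, and 8.82 and 9.50 without E9 replicate 2, from 3 counts in all. Counts were few for Hic1 and Bcl11a at E9 and for Cux2 in E13 Het replicate 1, so these levels are imprecise. Single libraries held 0 to 6 counts there, apart from Bcl11a in E9 replicate 1.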

Other observations

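Set against E9, KO epidermis gave list results of its own. Chd3 was at 1481 ± 49.0 CPM in KO and 261 ± 37.7 CPM in E9 Het epidermis (edgeR, adjusted p = 1.94e-07), Smarca2 at 228 ± 34.6 CPM in KO and 40.7 ± 23.1 CPM in E9 (edgeR, adjusted p = 0.000647), and Satb1 at 403 ± 15.4 CPM in KO and 80.9 ± 32.9 CPM in E9 (edgeR, adjusted p = 0.000114). Smarcd2, a BAF subunit gene, was 2.10-fold higher (edgeR, adjusted p = 0.000881) and Smarcd1, its paralog, 2.37-fold lower (edgeR, adjusted p = 0.00539). In this comparison 3 of 25 BAF genes were higher and 2 lower, 2 of 15 NuRD genes higher, 1 of 20 corepressor genes higher, and 3 of 26 BTB relatives higher and 1 lower, where 7.67% of all genes passed. The calls of Bcl6, Hdac2, Notch1, Patz1, Rcor1 and Smarcc2 ended when single libraries were left out, with adjusted p up to 0.122, 0.148, 0.118, 0.138, 0.187 and 0.072. E13 Het and KO epidermis share the E9 libraries as their baseline, so these values are not independent of those at E13 Het.

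Among the listed targets, Cdkn1c was at 475 ± 75.0 CPM in KO and 91.5 ± 7.86 CPM in E9 Het epidermis (edgeR, adjusted p = 1.17e-06), and Ccnd1 at 31.9 ± 6.12 CPM in KO and 121 ± 15.2 CPM in E9 (edgeR, adjusted p = 0.000851). Cdkn1c, Hic1 and Chd3 are all higher in KO than in E9 Het epidermis, whereas Ccnd1 is lower. Whether these differences are related was not tested. Against dermis, Cdkn1c stood lower in E13 Het epidermis, at 111 ± 11.5 CPM, against 754 ± 31.9 CPM in dermis (edgeR, adjusted p = 2.74e-05).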
